A study of Sus scrofa and Rattus norvegicus with 8 samples.

Results

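Small nucleolar RNAs (snoRNAs) and small Cajal body-specific RNAs (scaRNAs) were described in 6 RNA-seq libraries of pig backfat. The members were the gene IDs of the pig table whose symbol begins with SNORA, SNORD or SCARNA followed by a digit, and there were 68 of them among 25880 IDs. They were selected on the symbol, and the group itself was chosen with the TPM of these 6 libraries known, so the levels are given as a description. They comprised 35 H/ACA box snoRNAs (SNORA), 30 C/D box snoRNAs (SNORD) and 3 scaRNAs (SCARNA). The 6 libraries (replicates 1 to 6) came from adult female Bama pigs, 2 years old, and the tissue was the upper layer of the subcutaneous backfat. No treatment, genotype or second condition separated the pigs, so the design holds no contrast and no test was made. The same series holds 2 libraries of pooled inguinal white adipose tissue from 32-week-old female SD rats, which were not used here because the rat IDs carried no symbols.

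SnoRNAs are short noncoding RNAs that pair with other RNAs and bring an enzyme to a chosen nucleotide. C/D snoRNAs assemble with fibrillarin, NOP56, NOP58 and SNU13 and guide the methylation of ribose, while H/ACA snoRNAs assemble with dyskerin, GAR1, NHP2 and NOP10 and guide the conversion of uridine to pseudouridine. Most of them act on ribosomal RNA in the nucleolus, and scaRNAs act in the same way on the small nuclear RNAs of the spliceosome in Cajal bodies. In mammals most of these RNAs are cut out of introns of longer host transcripts, many of which encode ribosomal proteins or translation factors.

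Levels are given as TPM, a length-corrected abundance of transcripts whose sum over all genes of a library is 1000000. The libraries were rRNA-depleted, and IDs without a symbol took 54.7 to 96.5% of all TPM, so that named nuclear genes (14844 IDs) held only a part of it. That part was 24.1 to 26.3% in replicates 1, 2, 3 and 6, but 3.34% in replicate 4 and 4.73% in replicate 5, in which the 13 mitochondrially encoded genes were also low at 0.209 and 0.298% of all TPM against 10.8 to 21.2% elsewhere. Replicates 4 and 5 thus stood apart from the rest, and class values and the levels of the leading members are given with and without them. Besides TPM as deposited, "rescaled TPM" are used below, for which each library was scaled to 1000000 over its named nuclear genes. The 6 adipocyte markers examined were all well above 0 in every library, with median levels of 1481 to 2071 rescaled TPM. Summed macrophage markers were 336 and 197 rescaled TPM in replicates 4 and 5 and 426 to 543 elsewhere, and summed endothelial markers were 556 and 674 against 988 to 1214. Replicates 4 and 5 were the lowest pair for 3 of 5 macrophage markers and for the 3 named endothelial markers, beside 48.6% of 8866 named nuclear genes. CD163 and MRC1 were at 129 and 156 rescaled TPM in replicate 4, above their 126 and 136 in replicate 2. In bulk tissue, fewer cells of a type and less RNA per cell cannot be told apart, and the part of these shifts in the levels below was not tested.

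Of the 68 members, 56 were above 0.1 TPM in at least 1 library and 44 in all 6 libraries, while 12 were listed at 0 throughout. Among the H/ACA snoRNAs 30 of 35 were detected, among the C/D snoRNAs 23 of 30, and all 3 scaRNAs were detected in every library. The 12 members at 0 were SNORA2C, SNORA4, SNORA8, SNORA24 and SNORA51 in the H/ACA class, and SNORD4A, SNORD4B, SNORD5, SNORD7, SNORD56B, SNORD57 and SNORD86 in the C/D class. The number of members detected was nearly the same in every library, at 48, 51, 50, 51, 52 and 50 in replicates 1 to 6. At a threshold of 1 TPM the libraries separated. There were 26 members over it in replicate 4 and 28 in replicate 5, against 45 to 50 in the others. Named nuclear genes as a whole held 3.34 and 4.73% of all TPM in replicates 4 and 5, against 24.1 to 26.3% elsewhere. A fixed cut in TPM is thus stricter for named nuclear genes in these libraries. How many of those genes pass the same cuts was not counted, so the drop is not shown to be particular to the members. Without replicates 4 and 5, 54 members were above 0.1 TPM in at least 1 library and 46 in all of them. Detection rested on 1 library for SNORA13 and for SNORD99, which was at 1.08 TPM in replicate 6, and both were listed at 0 in the other 5.

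The 3 classes together held 0.459, 0.753, 0.302, 9.005, 5.67 and 0.518% of the named nuclear TPM in replicates 1 to 6 (2.78% ± 3.68, SD, n = 6). The 2 highest shares were those of replicates 4 and 5, and every other library was below 1%. Of all TPM, the same members held 0.115, 0.182, 0.0790, 0.301, 0.268 and 0.136%. That range was 3.81 times, against 29.8 times for the share of named nuclear TPM, so the size of the step depended on the denominator. C/D snoRNAs were highest in replicate 2 on that measure, at 0.0774% against 0.0596% in replicate 4. scaRNAs, the smallest class by number, were the largest by share in replicates 4 and 5 and held 0.189, 0.288, 0.0974, 5.43, 3.72 and 0.196% in replicates 1 to 6 (1.65% ± 2.33, SD, n = 6). C/D snoRNAs held 0.188, 0.321, 0.143, 1.78, 0.870 and 0.228% (0.589% ± 0.643, SD, n = 6). H/ACA snoRNAs held 0.0819, 0.144, 0.0621, 1.79, 1.08 and 0.0939% (0.541% ± 0.727, SD, n = 6). In replicates 2, 3 and 6 the order was C/D, scaRNA and H/ACA from high to low, in replicate 1 the first 2 of these were 0.188 and 0.189%, and in replicates 4 and 5 scaRNAs came first. Given an SD above the mean in every class, these means describe 2 libraries more than the set of 6. Without replicates 4 and 5 the shares were 0.193% ± 0.0779 for scaRNAs, 0.220% ± 0.0759 for C/D and 0.0955% ± 0.0350 for H/ACA snoRNAs (SD, n = 4), or 0.508% ± 0.187 in all.

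**Figure D1:**
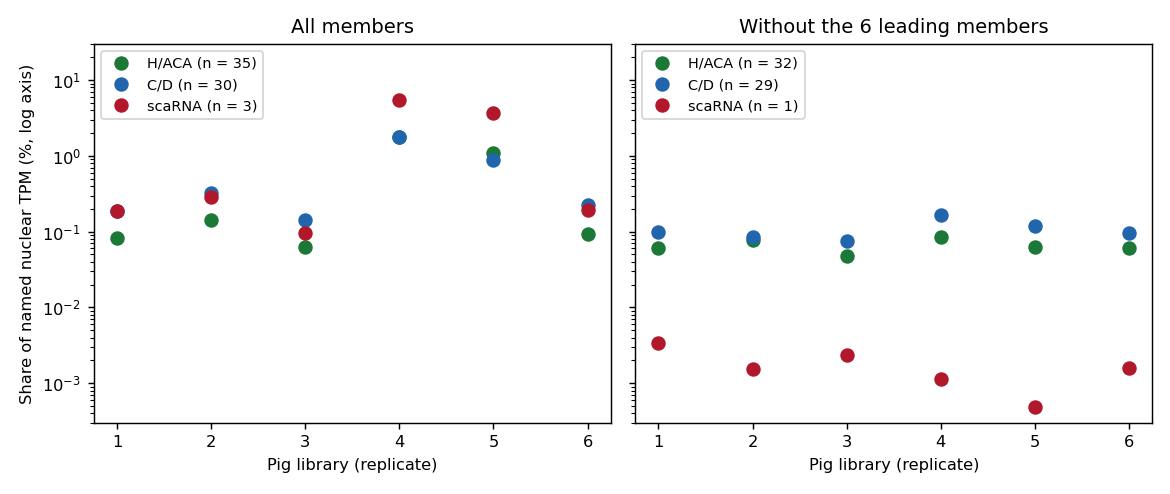
Share of the named nuclear TPM (%, log axis) held by each class in each of the 6 pig libraries, 1 point per class and library, for all members on the left and without the 6 members of highest mean TPM on the right; n is the number of IDs summed. All 3 classes are highest in replicates 4 and 5 on the left, where the H/ACA and C/D points of replicate 4 overlap at 1.79 and 1.78%. On the right the H/ACA and C/D points stay between 0.0481 and 0.168%, and the C/D points are still highest in replicates 4 and 5, at 0.168 and 0.118%.

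The plot of class shares shows that most of this height came from few members. The 6 IDs of highest mean TPM were SCARNA10, SNORD17, SCARNA12, SNORA74, SNORA53 and SNORA12, and they held 0.295, 0.589, 0.175, 8.75, 5.49 and 0.357% of the named nuclear TPM in replicates 1 to 6. The other 62 members together held 0.164, 0.165, 0.127, 0.254, 0.182 and 0.160%, a range of 2.01 times between the lowest and the highest library, against 49.9 times for the 6 leading members. The 6 were set apart after their values were seen, and the mean that ranks them includes replicates 4 and 5. On the mean of the other 4 libraries SCARNA10, SNORD17, SCARNA12 and SNORA74 kept ranks 1 to 4, while SNORA53 and SNORA12 came to ranks 9 and 13. The values beside this cut were 53.4 TPM for SNORA12, the last inside it, and 26.9 TPM for SNORD45A, the first outside it.

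SCARNA10 (ENSSSCG00000040520), known as U85, is a composite scaRNA with both a C/D and an H/ACA part and guides modification of the U5 small nuclear RNA. It had 412, 580, 215, 1548, 1544 and 450 TPM in replicates 1 to 6 (792 ± 596, SD, n = 6). It was the most abundant member in every library, with 43.9% of the TPM of all members and 86.1% of that of its class. Without replicates 4 and 5 its mean was 414 ± 151 TPM (SD, n = 4), or 32.4% of all members. Among the 14844 named nuclear genes it ranked 50, 26, 129, 1, 1 and 46 in replicates 1 to 6, so it was the most abundant named nuclear gene in replicates 4 and 5. SCARNA12 (ENSSSCG00000026919), or U89, is another composite scaRNA paired with U5. It had 51.5, 111, 33.6, 266, 218 and 61.5 TPM (124 ± 96.4, SD, n = 6), with a mean of 64.3 ± 33.0 TPM without replicates 4 and 5 (n = 4). Both were highest in replicates 4 and 5 and lowest in replicate 3, and the ratio of SCARNA10 to SCARNA12 stayed between 5.24 and 8.01 in all 6 libraries.

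SCARNA18 (ENSSSCG00000018205), the third scaRNA, had 8.42, 3.69, 6.18, 0.374, 0.228 and 4.23 TPM (3.85 ± 3.21, SD, n = 6). It was thus lowest where the other two were highest, and on the rescaled scale replicates 4 and 5 were also its lowest, at 11.2 and 4.82 against 15.3 to 33.7 rescaled TPM. It made up 2.43% of the class in replicate 3 and 0.0130% in replicate 5. The U5 small nuclear RNA that SCARNA10 and SCARNA12 modify was represented by 1 named ID, with 0, 0, 14.9, 47.6, 6.57 and 10.5 rescaled TPM. U12, a small nuclear RNA of the minor spliceosome and no member, had 130, 141, 182, 10.8, 24.6 and 163 rescaled TPM and was lowest in replicates 4 and 5, so these libraries were not high for every named short noncoding RNA.

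SNORD17 (ENSSSCG00000018309), which guides methylation of the large-subunit ribosomal RNA, carried the C/D class. It had 223, 570, 174, 540, 356 and 344 TPM in replicates 1 to 6 (368 ± 161, SD, n = 6), and these values were 68.4% of the class. Without replicates 4 and 5 its mean was 327 ± 177 TPM (SD, n = 4), or 59.1% of the class. Unlike the scaRNAs it was highest in replicate 2 as deposited, and replicates 2 and 4 were its highest pair. After rescaling it was highest in replicate 4 (16162 rescaled TPM) and replicate 5 (7513), against 664 to 2363 in the others, so the order of its libraries depended on the scale. Its part of the C/D TPM ran from 46.6% in replicate 3 to 90.6% in replicate 4. Summed C/D TPM as deposited were 470, 774, 373, 596, 412 and 601 TPM, also highest in replicate 2 and lowest in replicate 3, and ranged 2.07 times, the least of the 3 classes.

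Below SNORD17 the C/D class fell steeply to SNORD45A, which guides methylation of 18S ribosomal RNA, at 26.9 ± 17.3 TPM (SD, n = 6). Next came SNORD79 at 19.1 ± 15.1 TPM and SNORD93 at 17.1 ± 13.0 TPM, which act on 28S and 18S ribosomal RNA. SNORD21, at 17.05 ± 21.8 TPM, is encoded in an intron of the ribosomal protein gene RPL5 in humans, and its mean was 8.78 TPM without replicate 3, so that its place among the 5 leading C/D members rested on that library. The 5 leading C/D members held 83.3% of the class and 9 members held 90%. The list went on with SNORD12B at 12.8 ± 9.09 TPM, SNORD97 at 11.9 ± 4.11 TPM and SNORD8 at 8.02 ± 6.02 TPM, the last of which guides a modification of the U6 small nuclear RNA. Neighbours in this order from SNORD45A down differed by less than their SD, and only SNORD17 stood clear of the rest in every library.

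The H/ACA class was spread over more members. SNORA74 (ENSSSCG00000018891), or U19, led it with 22.8, 102, 22.6, 245, 218 and 49.0 TPM in replicates 1 to 6 (110 ± 98.9, SD, n = 6). SNORA53 (ENSSSCG00000018262) had 14.3, 29.4, 9.65, 207, 122 and 18.8 TPM (66.9 ± 80.6, SD, n = 6). SNORA12 (ENSSSCG00000018383) had 14.3, 26.8, 4.29, 118, 139 and 18.0 TPM (53.4 ± 59.0, SD, n = 6). In all 3, replicates 4 and 5 were above every other library. Together the 3 held 66.7% of the class, the 5 leading members 73.5%, and 14 members were needed for 90%. Without replicates 4 and 5 their means were 49.2 ± 37.6 TPM for SNORA74, 18.0 ± 8.43 TPM for SNORA53 and 15.8 ± 9.31 TPM for SNORA12 (SD, n = 4). SNORA74 and SNORA53 were still first and second of the class, SNORA12 came behind SNORA3A and SNORA41, and SNORA74 held 20.4% of the H/ACA TPM in place of 31.9%. Leaving out replicate 4 alone took the mean of SNORA53 to 38.9 TPM.

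The next H/ACA members had means of 8.06 to 11.8 TPM and did not differ beyond their SD. SNORA3A had 11.8 ± 8.04 TPM, SNORA41 had 11.3 ± 7.999 TPM, SNORA48 had 9.70 ± 5.81 TPM, SNORA31B had 9.10 ± 8.43 TPM and SNORA46 had 8.06 ± 5.99 TPM (SD, n = 6). Over the 27 H/ACA members above 0 outside the 3 leading ones, the median of the mean levels was 3.55 TPM, and over the corresponding 22 C/D members it was 5.23 TPM. Both classes thus had a long tail of low members under a few abundant ones, as the plot of all members by mean TPM shows.

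**Figure D2:**
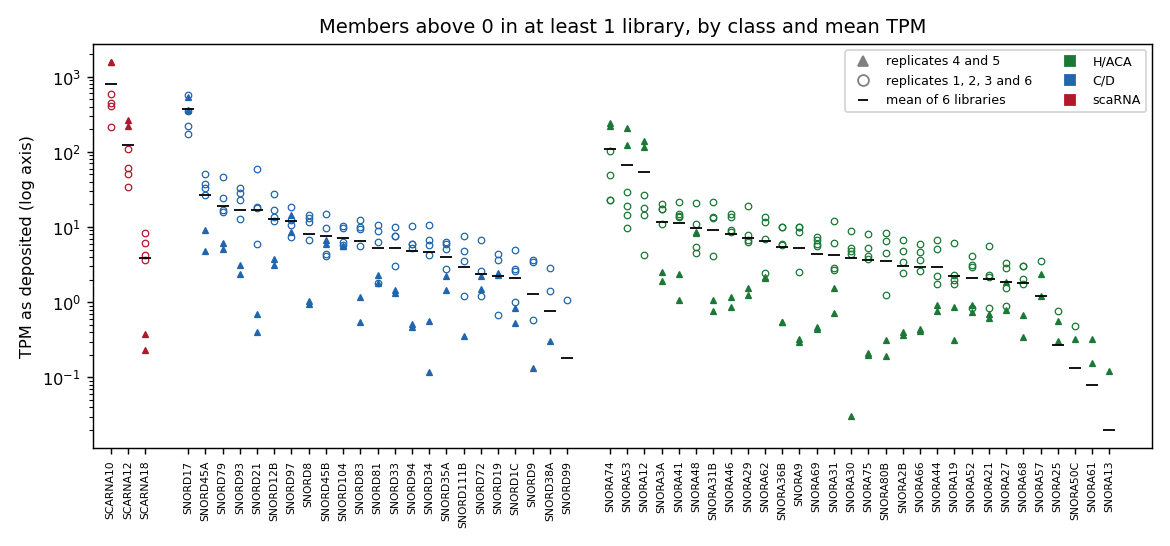
TPM as deposited (log axis) of the 56 members above 0 in at least 1 library, ordered by mean within each class; filled triangles are replicates 4 and 5, open circles replicates 1, 2, 3 and 6, and bars the mean of 6 libraries, while values of 0 cannot be drawn on a log axis and are left out. For SCARNA10, SCARNA12, SNORA74, SNORA53 and SNORA12 the triangles lie above all circles, and for most members of the tail they lie below.

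As deposited, replicates 4 and 5 were the lowest pair for 99.2% of the 3693 named nuclear genes whose mean reached 10 TPM, and for 7 of the 14 members over that floor. They were the highest pair for 5 of these genes (0.135%), and all 5 were members, namely SCARNA10, SCARNA12, SNORA74, SNORA53 and SNORA12. After rescaling, replicates 4 and 5 were the highest pair for 15 of 49 members with a mean of at least 10 rescaled TPM, beside a background of 12.3% of 8866 named nuclear genes. Besides the 6 leading members, the 15 were SNORD19, SNORD35A, SNORD45B, SNORD72, SNORD97, SNORD104, SNORA27, SNORA48 and SNORA57. Replicates 4 and 5 were the lowest pair for 10 of the 49 members, against a background of 48.6%. Replicate 4 alone was highest for 20 of the 49 members (9 H/ACA, 9 C/D and 2 scaRNAs), where the background was 8.61%. The floor is a mean over all 6 libraries, so members high in replicates 4 and 5 can pass it through these libraries. SNORA57, for example, had 0 in replicates 1, 2 and 6 and 13.7 rescaled TPM in replicate 3. Without replicates 4 and 5 the floor was passed by 45 members, and the later counts of the 49 have the same limit. Because the classes were chosen with these libraries' values known, the counts describe the members and carry no test.

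On the log2 scale, the median deviation of the 6 leading members from their own median over the libraries was -0.68, 0.40, -1.37, 4.65, 4.02 and -0.40 in replicates 1 to 6 (log2 of rescaled TPM + 1). The same median over the other 43 members above the floor lay between -0.27 and 0.07. Named nuclear genes had 0.07, 0.07, -0.02, -0.26, -0.31 and 0.10. A median near 0 does not mean that single members were level, since they went both ways. SNORA53 reached 6.04 in replicate 4, the largest deviation of any member, and SNORA12 reached 5.32 there and 5.06 in replicate 5. Of the members outside the leading set, SNORA57 had the largest positive value, at 4.23 in replicate 4. SNORA30 went the other way, with -3.34 in replicate 4 and -4.28 in replicate 5.

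**Figure D3:**
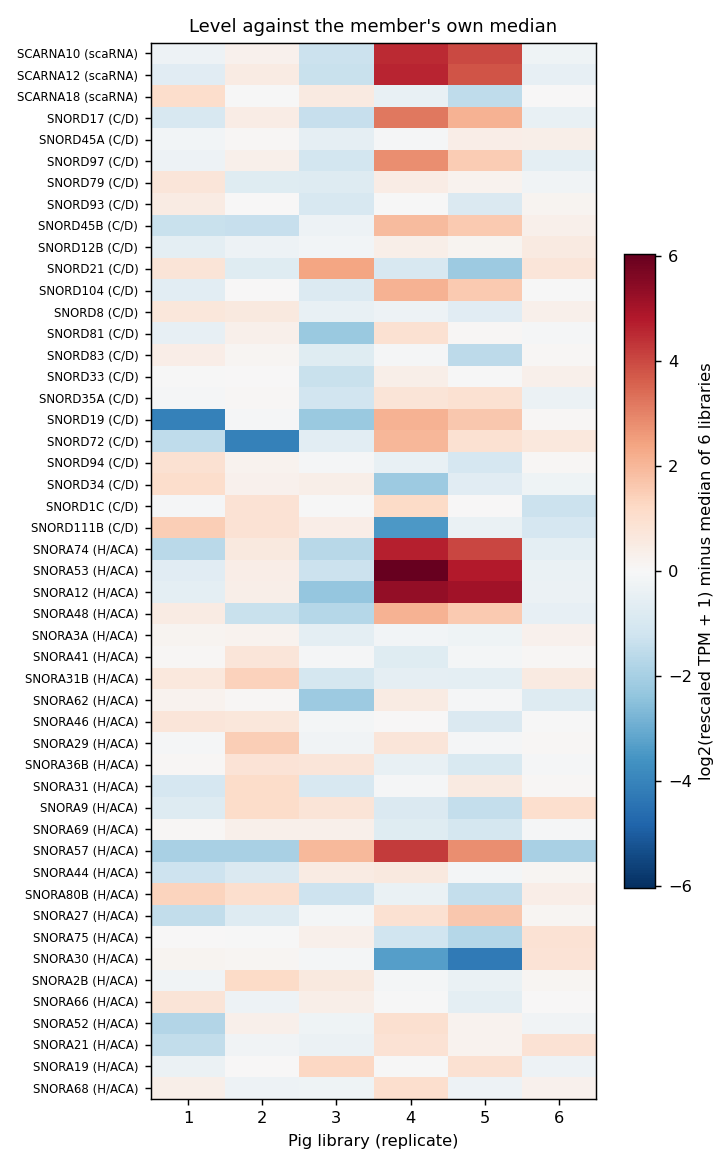
Deviation of log2(rescaled TPM + 1) from the member's own median over the 6 pig libraries, for the 49 members with a mean of at least 10 rescaled TPM, 1 row per member and 1 column per library, red above and blue below that median. The deepest red cells lie in replicates 4 and 5 and belong to SNORA53, SNORA12, SNORA74, SCARNA12, SCARNA10 and SNORA57, while most rows stay pale.

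The 6 leading members also shared their order among the other 4 libraries. Each of them was highest in replicate 2 and lowest in replicate 3 among replicates 1, 2, 3 and 6, as deposited and after rescaling, although SNORA74 differed little between replicates 1 and 3 (22.8 and 22.6 TPM). This order held for 13 of the 49 members over the floor, beside 18% of named nuclear genes, and the other 7 were SNORD35A, SNORD81, SNORD97, SNORD104, SNORA29, SNORA31B and SNORA41. SCARNA10 ran from 822 to 2406 rescaled TPM in these 4 libraries, and had 46342 in replicate 4 and 32616 in replicate 5. The step was smallest for SNORD17, which ran from 664 to 2363 and had 16162 and 7513, and as deposited it had no such step.

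Members varied more between pigs than named nuclear genes did. The CV (coefficient of variation, SD over mean, here of rescaled TPM) had a median of 0.564 for 26 H/ACA members, 0.577 for 20 C/D members and 1.40 for the 3 scaRNAs, while it was 0.282 for 8866 named nuclear genes under the same floor. Without the 6 leading members it was 0.560 (43 members). Without replicates 4 and 5 it was 0.518 for H/ACA, 0.411 for C/D and 0.394 for scaRNAs, against 0.163 for named nuclear genes. As deposited the median was 0.758 for 14 members over a floor of 10 TPM and 0.671 for 3693 named nuclear genes, so the gap was narrow on that scale. Members are short and most are low, and what their level and length add to the CV was not tested. Just over the floor were SNORA68, SNORA19 and SNORD111B at 11.03 to 12.6 rescaled TPM, and just under it was SNORD9 at 5.70.

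Of the members outside the leading set, 10 of 23 H/ACA and 8 of 19 C/D members had a CV under 0.5, which 85.1% of the 8866 named nuclear genes had. The steadiest was SNORA3A, with 70.5, 72.8, 41.9, 57.1, 52.8 and 76.8 rescaled TPM in replicates 1 to 6 (CV 0.219). SNORD45A had 131, 156, 102, 142, 194 and 190.4 rescaled TPM (CV 0.232), and SNORD12B had 47.8, 57.0, 64.6, 92.8, 79.4 and 105 (CV 0.294). In these members replicates 4 and 5 did not stand apart. SNORD45A has a neighbour, SNORD45B, in the same host gene in humans, and the pair differed: SNORD45B had 17.6, 17.2, 37.5, 179, 141 and 56.9 rescaled TPM and was highest in replicates 4 and 5.

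SNORA53 had the largest CV of all members over the floor, at 1.66, followed by SNORA57 at 1.51 and SNORA12 at 1.47. SNORA57 was listed at 0 in replicates 1, 2 and 6 and had 3.57, 2.37 and 1.22 TPM in replicates 3, 4 and 5, so its CV came from a low member. SNORA74, SCARNA12 and SCARNA10 followed with CVs of 1.46, 1.45 and 1.40, and SNORD17 was the most variable C/D member at 1.27. SNORD97, which guides methylation of an elongator tRNA, had 49.0, 76.7, 27.7, 433, 182 and 39.9 rescaled TPM (CV 1.16). As deposited it had 12.3, 18.5, 7.26, 14.5, 8.61 and 10.5 TPM, among which replicates 4 and 5 did not stand apart. SNORD21 differed from all of these in that its high library was replicate 3, at 58.4 TPM against 0.400 to 18.6 TPM in the others (CV 1.13). In 9 of the 49 members a single library held over 50% of the summed rescaled TPM, as in 0.406% of named nuclear genes, and for SNORA53 it was 68.3%.

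SNORD33, SNORD34 and SNORD35A lie in introns of the ribosomal protein gene RPL13A in humans. Some snoRNAs of that gene are known from the response of cultured cells to excess fatty acid. They were chosen after their values were seen, for that link to lipid. SNORD33 had 30.8, 31.5, 11.5, 39.8, 30.8 and 38.2 rescaled TPM in replicates 1 to 6. SNORD34 had 42.4, 23.6, 25.7, 3.55, 11.8 and 16.3, and SNORD35A had 23.5, 26.2, 10.6, 43.7, 47.4 and 19.2. Their libraries did not share an order, since replicate 4 was the lowest for SNORD34 and among the 2 highest for the other two. RPL13A itself had no named ID.

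The profile of the members was less alike between libraries than that of named nuclear genes. Pearson's r of log2(rescaled TPM + 1) over the 56 members above 0 averaged 0.771 ± 0.102 (SD over 15 library pairs), against 0.957 ± 0.0223 over 14249 named nuclear genes. Each r was taken over genes, which are no replicates of a condition, and each pair shares libraries with others. No floor on level was set, and no genes of like level were set beside the members. What the level of the members adds to the lower r was not tested. The most alike pair was replicates 4 and 5 at 0.949, the 6 pairs among the other 4 libraries had 0.784 to 0.881, and the 8 pairs that join the 2 sets had 0.630 to 0.760. Without the 6 leading members the same 3 values were 0.846, 0.675 to 0.814 and 0.439 to 0.631, so the remaining 50 members had the same order of pairs. Named nuclear genes also had their lowest r in the pairs that join the 2 sets, with 0.983 for replicates 4 and 5, 0.973 to 0.983 for the other 6 pairs and 0.928 to 0.950 for the 8 mixed pairs.

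Host genes were set beside 22 members whose host is known from human snoRNA genes and carried a symbol in pig (20 hosts). These pairs were written by hand after the member values were seen, and an intron position in the pig genome was not established here. The hosts varied less than their members in 21 of 22 pairs, with a median CV of 0.229 against 0.606. The median CV of named nuclear genes over the floor was 0.282, so the lower CV is not shown to be particular to hosts. The member mean was above the host mean, both in TPM, in 3 pairs only, which were SCARNA10, SCARNA12 and SNORA12. Across the 22 pairs the median ratio of member to host was 0.106, 0.119, 0.0756, 0.213, 0.173 and 0.0983 in replicates 1 to 6. Outside the 4 pairs of leading members it was 0.0870, 0.0544, 0.0622, 0.123, 0.0798 and 0.0573.

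SCARNA10 lies in an intron of NCAPD2 in humans, a condensin subunit gene that is at chromosome 5, 64136505 to 64167410, in pig (RefSeq annotation of Sscrofa11.1, 1-based). NCAPD2 had 13.4, 9.72, 5.34, 2.96, 4.11 and 11.3 rescaled TPM, so it was lowest in replicates 4 and 5, where SCARNA10 was highest. The ratio of SCARNA10 to NCAPD2 was 123 to 247 in replicates 1, 2, 3 and 6, 15681 in replicate 4 and 7929 in replicate 5. As deposited, NCAPD2 was at 0.0987 TPM in replicate 4, under the detection threshold of 0.1, and at 0.195 TPM in replicate 5. The ratios of these 2 libraries thus rest on a host value near 0, and their size is uncertain. SCARNA12 is hosted by PHB2, which encodes a mitochondrial prohibitin and is at chromosome 5, 63751566 to 63756480. PHB2 had 95.0, 91.3, 103, 77.2, 72.4 and 97.7 rescaled TPM, again lowest in replicates 4 and 5, and the ratio of SCARNA12 to PHB2 was 103 and 63.6 there and at most 5.03 elsewhere. The hosts thus did not share the height of their scaRNAs in these libraries.

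SNORA12 is hosted by CWF19L1 (chromosome 14, 111354597 to 111388911), which stayed between 36.9 and 46.7 rescaled TPM while SNORA12 ran from 16.4 to 3522. SNORA53 is hosted by SLC25A3, the mitochondrial phosphate carrier gene (chromosome 5, 85284405 to 85292336). SLC25A3 had 674, 486, 529, 1080, 1027 and 593 rescaled TPM and was itself highest in replicates 4 and 5. The ratio of SNORA53 to SLC25A3 was 0.0697 to 0.251 in replicates 1, 2, 3 and 6, and 5.74 and 2.51 in replicates 4 and 5. SNORA53 was therefore above its host in these libraries and below it in the other 4.

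Some of the other pairs stayed closer together, while SNORD97 and SNORD21 did not stay close to their hosts. SNORD8 lies in CHD8, a chromatin remodeller gene (chromosome 7, 77719476 to 77780148), and its ratio to CHD8 was 1.02, 0.929, 0.487, 0.942, 0.813 and 0.787 in replicates 1 to 6. SNORD9 lies in CHD8 as well, and it had 3.65, 0.573, 3.48, 0.132, 0 and 0 TPM. SNORA46 and its host CNOT1, the scaffold gene of the CCR4-NOT deadenylase, were the only pair in which the host had the larger CV (0.458 against 0.398). SNORA41 had 0.120 to 0.450 times the level of EEF1B2, a translation elongation factor gene, and was not high in replicates 4 and 5. SNORD97 had 0.0514 to 0.0958 times the level of EIF4G2 in replicates 1, 2, 3 and 6, and 0.878 and 0.328 times in replicates 4 and 5. SNORD21 and SNORA66 share RPL5 as host, which had 937 rescaled TPM in replicate 3 and 779 to 1340 elsewhere, so RPL5 did not share the high value of SNORD21 there.

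**Figure D4:**
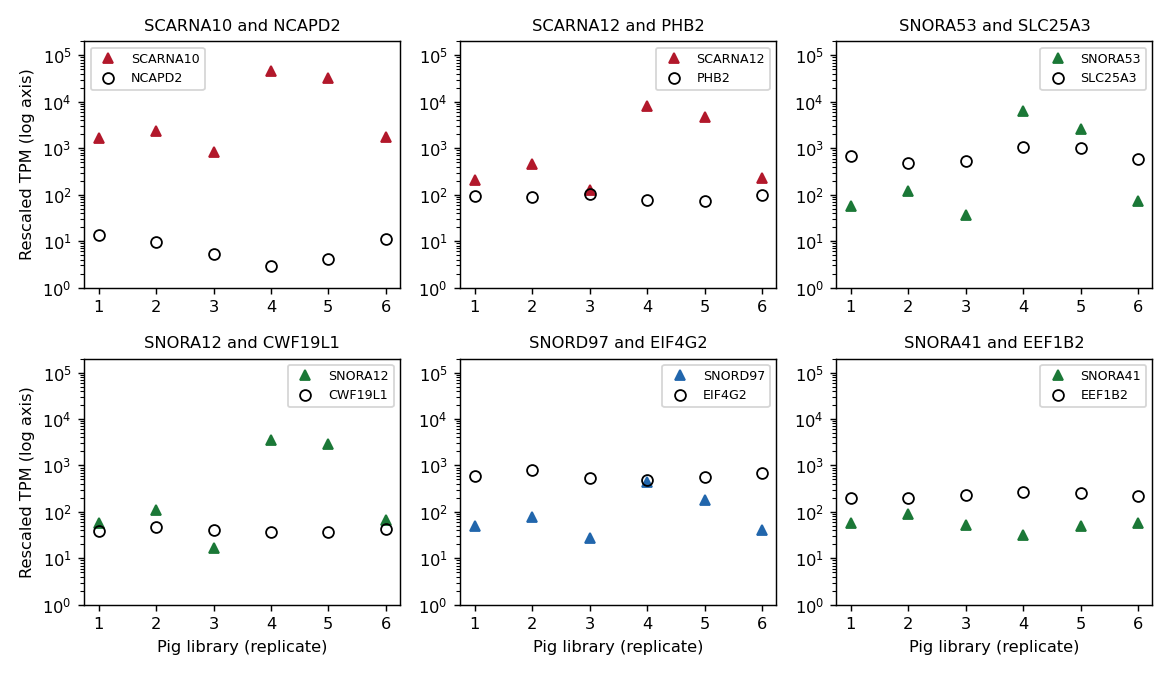
Rescaled TPM (log axis) of 6 members (filled triangles) and of the host gene known from humans (open circles) in each of the 6 pig libraries. SCARNA10, SCARNA12, SNORA12 and SNORA53 are highest in replicates 4 and 5 while the hosts NCAPD2, PHB2 and CWF19L1 are not, and SNORA41 stays below EEF1B2 in every library.

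Transcripts of the genes for proteins that bind these RNAs did not share the height of the leading members, and protein was not measured. The 4 C/D core protein genes had medians of 79.4, 85.9, 81.1, 95.3, 94.6 and 102 rescaled TPM in replicates 1 to 6, and a median CV of 0.182. FBL, which encodes the methyltransferase fibrillarin, was lowest in replicates 4 and 5, with 12.4 and 17.7 rescaled TPM against 27.6 to 43.2, while SNU13 was highest in them at 143 and 157 against 110 to 140. Of the H/ACA core genes, DKC1, which encodes the pseudouridine synthase dyskerin, had 12.3, 15.8, 9.93, 9.85, 10.5 and 14.8 rescaled TPM. GAR1 had 16.2 to 39.2 and NOP10 46.1 to 89.3, with both of the highest NOP10 values in replicates 4 and 5. The fourth gene of that list, NHP2, had no named ID.

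Among the 9 named assembly factors, replicates 4 and 5 were the lowest pair for 5 and the highest for 0, where the background was 48.6 and 12.3% of named nuclear genes. NAF1, which brings the H/ACA proteins together, had 34.5, 37.6, 45.05, 10.05, 8.40 and 36.6 rescaled TPM, and SHQ1, a chaperone of dyskerin, had 16.3, 13.7, 13.3, 15.5, 14.7 and 17.5. Among the 5 named Cajal body genes the pair was lowest for 1 (WRAP53, whose product takes scaRNAs to the Cajal body) and highest for 0, and COIL, the gene of the Cajal body protein coilin, stayed between 16.3 and 22.4. A wider list of snoRNA host genes, mostly of ribosomal proteins and translation factors, had 22 named genes over the floor, and replicates 4 and 5 were the highest pair for 11 of them and the lowest for 4, against the same background. The median CVs of these 5 lists ranged from 0.167 to 0.249, below that of the members in each class and beside 0.282 for named nuclear genes.

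Equal values were looked for, because members with like sequence could share reads. No member had the same values as another ID in all 6 libraries. To 3 decimals, SNORA36B, SNORA66 and SNORA69 were all at 5.94 TPM in replicate 1 and differed in each other library, for example with 5.68, 3.62 and 5.52 TPM in replicate 6. Equal pairs occurred in replicates 2, 3 and 4 (2 members each). How the deposited estimates divide reads among members of like sequence or between a member and the unspliced transcript of its host cannot be read from TPM.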

How the data were processed

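Total RNA of pig backfat was extracted by the authors on columns (RNeasy Mini), depleted of rRNA (Ribo-Zero), made into stranded libraries (TruSeq) and sequenced on an Illumina platform. The deposited values are TPM per gene, which the authors estimated with Kallisto 0.43.0, and Sscrofa11.1 is the pig build named. Which annotation release was quantified for the deposited table is not stated in what was read here. TPM keep no record of depth, so no counting error can be given and precision rests on the spread between the 6 libraries. Kallisto divides by effective transcript length, which is short and uncertain for snoRNAs. Columns recover short RNA in part only, and reads of an unspliced host contain the snoRNA. What these steps add to the levels was not tested.

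Symbols came from a name table, which named 14857 of 25880 IDs (57.4%), and snoRNAs without a symbol were not analysed here. Rescaled TPM set each library to 1000000 over 14844 named nuclear genes, 13 mitochondrially encoded genes being left out. Detection was over 0.1 TPM, CVs used a mean of at least 10, and log2 values a pseudocount of 1. Named members were the 8 of highest mean TPM in the H/ACA and C/D classes, all scaRNAs, the 3 of largest CV per class and up to 5 whose highest library held over 50% of the summed rescaled TPM, together with fixed lists of snoRNP, Cajal body, host and cell type marker genes, and any other member named was chosen after its values were seen. The rule's annotated hosts could not be used, so hosts known from humans were paired by hand. Members and lists were chosen with earlier results of these data known. Alternatives were other scales, floors, thresholds, denominators and libraries left out. The calculations used Python 3.11.15, pandas 2.3.3 and numpy 2.4.6 and were tested on simulated data.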

Additional observations from a re-analysis of the deposited data

Results flagged for a closer look

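The 6 values of each library set were examined for a single library far from the others, by the gap between the highest or lowest value and its neighbour as a part of the whole range (Dixon's 95% limit for 6 values). Of 44 sets, 3 passed, and chance passes about 1 in 20.

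SNORD21 was at 58.4 TPM in replicate 3, while its next highest value was 18.6 TPM in replicate 6 (gap 0.686 of the range). On the rescaled scale it was at 223 in replicate 3 (gap 0.701), and its next value was 72.6 in replicate 1. SNORA57 was at 70.9 rescaled TPM in replicate 4 (gap 0.636), with 25.8 in replicate 5 and 0 in 3 libraries. The 6 leading members did not pass. After rescaling each had its high values in both replicates 4 and 5, while SNORD17 as deposited had them in replicates 2 and 4.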

How the results depend on the processing

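The median CV of H/ACA members (0.564) was 0.899 as deposited, 1.32 after median-centring, 1.21 after quantile normalization, 0.594 with a floor of 1, 0.606 with no floor and 0.518 leaving out both replicates 4 and 5. That of C/D members (0.577) was 0.708, 1.07 and 0.970 on the same 3 scales, 0.650 with no floor and 0.411 leaving out both. That of scaRNAs (1.40) was 0.767 as deposited and 0.394 leaving out both. On the other scales fewer members passed the floor by construction (5 or 6 of the H/ACA, 7 or 9 of the C/D members). Leaving out both libraries was chosen after seeing the data. With 1 library left out at a time the medians ranged from 0.540 to 0.594 for H/ACA, 0.515 to 0.655 for C/D and 1.25 to 1.89 for scaRNAs. The share of named nuclear TPM ranged likewise from 0.292 to 0.637% for H/ACA, 0.350 to 0.678% for C/D, 0.899 to 1.97% for scaRNAs and 1.54 to 3.28% for all members, each lowest without replicate 4. Leaving out both took the shares to 0.0955% for H/ACA, 0.220% for C/D and 0.193% for scaRNAs. Beside the CVs above, 120 alternative values of the classes, those shares included, and 160 of single members moved by no more than the SD between libraries, which is wide, or, for counts, by less than 1.5 times. For the class shares the SD was above the mean, so a fall of any size stayed within it. The share of all members went from 2.78% to 0.180% with all TPM as denominator, and to 0.175% without the 6 leading members. That of scaRNAs went from 1.65% to 0.0919% with all TPM as denominator. These shares were thus not stable across the alternatives. Among the counts, detection over 1 TPM in place of 0.1 took the mean per library from 26.5 to 20 for H/ACA, from 20.8 to 18.3 for C/D and from 3 to 2.67 for scaRNAs. The share of 5 leading scaRNAs was not run, as there were 3. No paired analysis was possible because no result comes from a test, rat IDs carry no names, and shared replicate numbers pair no animals. Depth is unknown, and 6 pigs of 1 breed, sex and age limit the precision.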

Other observations

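Other short noncoding RNAs with a symbol were few. The 4 microRNA IDs found (MIR142, MIR374B, MIRLET7I and MIR20A) summed to 39.1, 32.0, 11.3, 2.77, 12.5 and 52.0 rescaled TPM in replicates 1 to 6, and MIR374B, the one of them over the floor of 10, was lowest in replicates 4 and 5. Markers of skeletal muscle (2 of 4 named) summed to 0.688 to 8.19 rescaled TPM and lymphoid markers (4 of 4 named) to 3.93 to 20.3, and both sums were lowest in replicates 4 and 5. Of the 68 members, the number that ranked among the 100 most abundant named nuclear genes was 1, 2, 0, 6, 6 and 2 in replicates 1 to 6.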
